A study of Mus musculus with 9 samples.

Results

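The genes described here are the MHC class II genes of the mouse and Ciita, their transcriptional coactivator: Ciita, Cd74, H2-Aa, H2-Ab1, H2-Eb1, H2-DMa, H2-DMb1, H2-DMb2, H2-Oa and H2-Ob. These 10 genes were chosen by name, and not by any value measured here, from the 22060 genes of a macrophage table and the 21936 genes of a tumour cell table. RNA was sequenced from 9 cultures of mouse cells of strain C57BL, with 1 library per group, so that no comparison between 2 libraries has a replicate check. In the macrophage table were 4 libraries, all from macrophages grown out of bone marrow (BMDM), of the kinds that the labels name GM-BMDM and M-BMDM without spelling the letters out. Each kind was taken untreated and after 4 h of tunicamycin, a drug that blocks N-linked glycosylation and so disturbs protein folding in the endoplasmic reticulum (ER). In the tumour table were 5 libraries from the established mouse tumour line Lewis lung carcinoma (LLC). The cells of 1 LLC library were untreated, and those of the other 4 were kept for 24 h in medium that GM-BMDM or M-BMDM had conditioned for 16 h. Those macrophages had been washed after 12 h with tunicamycin (stressed medium here) or without it (unstressed medium).

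MHC class II molecules are surface proteins of antigen-presenting cells that show peptides from the endocytic route to CD4 T cells. H2-Aa with H2-Ab1 encodes the I-A molecule, and H2-Eb1 encodes the beta chain of I-E, whose alpha chain gene is defective in C57BL mice. Cd74, the invariant chain, escorts new class II molecules out of the ER and blocks their groove. The DM molecule (H2-DMa with H2-DMb1 or H2-DMb2) then exchanges the last invariant chain fragment for peptide, and the O molecule (H2-Oa with H2-Ob) restrains DM. Ciita does not bind DNA by itself but is recruited by factors on the X and Y boxes in front of class II genes, and it is the gene through which interferon gamma and cell type set class II transcription.

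Of the 10 genes 8 lie within 224 kb of chromosome 17, from 34092340 to 34316674 on GRCm38, and Ciita and Cd74 lie on other chromosomes. RefSeq promoter sequence (GRCm38.p6, 250 bases before each gene start) was at hand for 7 of the 10 genes. The stretches shown are those that hold the box letters shared by class II promoters, 60 bases each, read 5′ to 3′ on the gene's strand and ending with the Y box. Capitals mark the Y box core TGATTGG, the X box letters (AAC, any 2 bases, then ATGATG) and, in H2-Aa, the cyclic AMP response element TGACGTCA.
H2-Eb1, plus strand, chr17:34305753-34305812: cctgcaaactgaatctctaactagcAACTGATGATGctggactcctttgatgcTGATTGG
H2-Aa, minus strand, chr17:34287867-34287926: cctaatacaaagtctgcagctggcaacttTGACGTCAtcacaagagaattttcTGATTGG
H2-DMb2, plus strand, chr17:34145104-34145163: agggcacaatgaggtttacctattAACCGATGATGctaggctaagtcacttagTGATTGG
H2-Ob, plus strand, chr17:34238793-34238852: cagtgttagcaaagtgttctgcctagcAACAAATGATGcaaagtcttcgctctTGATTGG
H2-Oa, plus strand, chr17:34092281-34092340: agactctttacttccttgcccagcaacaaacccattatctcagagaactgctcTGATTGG

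The Y box letters stood in 6 of these 7 genes (H2-DMb1 besides those shown) and in 7.23% of all 32851 RefSeq promoter windows of the same length, counting either strand. The X box letters stood in 4 of the 7 (H2-Eb1, H2-DMb1, H2-DMb2 and H2-Ob) and in 39 of all windows (0.119%). Only 9 of all windows (0.0274%) held both, and those 9 included the 4 class II genes. Between X and Y letters lay 17 bases in H2-Eb1, 18 in H2-DMb1, 18 in H2-DMb2 and 15 in H2-Ob. TGACGTCA stood in 1.55% of all windows. The H2-DMb1 stretch overlaps a UTR annotated by GENCODE and is not shown. None of the 3 motifs overlaps another in the stretches shown. The motif letters were chosen after these promoters had been read, so the shares describe the windows and test nothing, and a match is not a measured binding site.

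**Figure D1:**
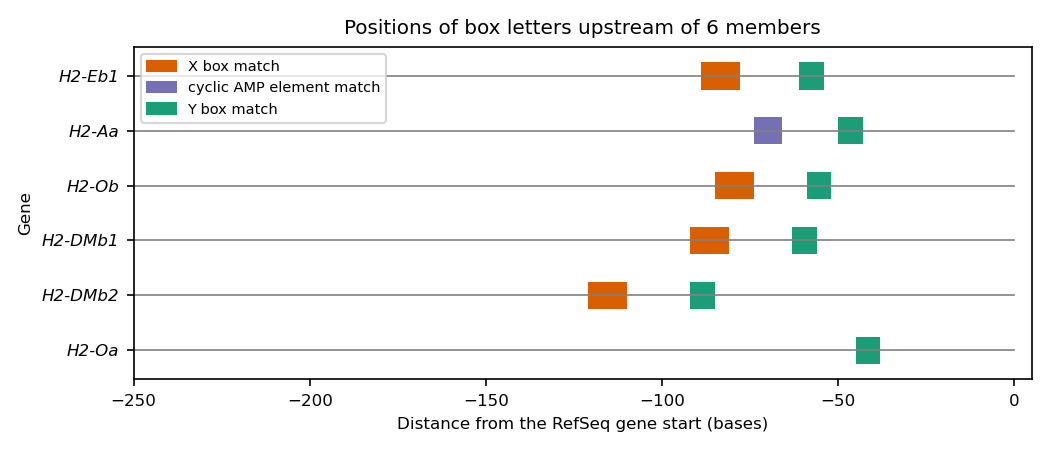
Positions of the box letters (coloured blocks) along the 250 bases before the RefSeq gene start (horizontal axis, in bases) for the 6 genes with a Y box match (vertical axis). The Y letters begin 45 to 92 bases before the start, and each X match lies upstream of them.

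Assigned reads ranged from 37695079 to 42751176 in the macrophage libraries and from 15020068 to 17128471 in the LLC libraries. Levels are CPM, the reads of a gene scaled to a common library size with TMM factors within each table. Intervals are at 95% and cover counting error only. They are exact, except those for differences of responses, which are Wald intervals on log2 ratios. Genes that averaged 1 CPM or more over a table were compared, which kept all 10 genes among 11049 in macrophages and 3 of the 10 among 11190 in LLC cells. In macrophages H2-Oa and H2-Ob reached that average only through the GM-BMDM libraries.

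All 10 genes were higher in untreated GM-BMDM than in untreated M-BMDM, as were 47.5% of all genes compared, and H2-DMb2, H2-Ob, H2-Oa and H2-DMa had the largest ratios. In an additive fit over the 4 macrophage libraries 9 of the 10 rose with kind, as did 25.4% of all genes, while Ciita itself did not pass. With tunicamycin all 10 were lower in GM-BMDM (49.7% of all genes) and 9 in M-BMDM (49.1%), and Ciita in GM-BMDM was the lowest relative to its start. For H2-DMb2 and H2-Ob in M-BMDM the counting interval included a ratio of 1. Ciita was also the gene whose order between the kinds turned with the drug.

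Ciita, the coactivator, read 53.0 CPM in untreated GM-BMDM, 14.8 CPM in treated GM-BMDM, 28.3 CPM in untreated M-BMDM and 18.2 CPM in treated M-BMDM. Untreated GM-BMDM thus held the highest level and treated GM-BMDM the lowest, and the counting intervals of all 4 libraries were separate. Without drug the level was 1.87-fold higher in GM-BMDM (1.74 to 2.02). With drug it was 1.23-fold lower in GM-BMDM than in M-BMDM (1.11 to 1.37). The kinds' own responses were 3.58-fold lower in GM-BMDM (3.28 to 3.92) and 1.56-fold lower in M-BMDM (1.42 to 1.71).

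Cd74 was the most abundant of the 10, at 1262 CPM in untreated and 943 CPM in treated GM-BMDM, and 728 CPM in untreated and 543 CPM in treated M-BMDM. Every GM-BMDM library lay above every M-BMDM library, by 1.73-fold without drug (1.71 to 1.76) and 1.74-fold with it (1.71 to 1.76). The drug went with a 1.34-fold lower level in GM-BMDM (1.32 to 1.36) and in M-BMDM alike (1.32 to 1.36). The difference between those responses was 0.00 on the log2 scale (−0.03 to 0.03), so the Cd74 responses of the kinds agree within counting error.

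H2-Aa, the I-A alpha chain, read 635 CPM in untreated and 343 CPM in treated GM-BMDM, and 313 CPM in untreated and 237 CPM in treated M-BMDM. H2-Ab1, its beta chain partner, read 547, 303, 268 and 202 CPM in the same order of libraries. The I-A genes therefore stood in the same order of libraries, with treated GM-BMDM just above untreated M-BMDM. H2-Eb1, the I-E beta chain, read 270 CPM in untreated and 125 CPM in treated GM-BMDM, and 149 CPM in untreated and 104 CPM in treated M-BMDM. Unlike the I-A genes it was lower in treated GM-BMDM than in untreated M-BMDM, with separate counting intervals.

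For these classical chains the level without drug was 2.02-fold (1.98 to 2.07), 2.04-fold (1.99 to 2.09) and 1.81-fold (1.75 to 1.87) higher in GM-BMDM for H2-Aa, H2-Ab1 and H2-Eb1. With tunicamycin in GM-BMDM H2-Aa was 1.85-fold lower (1.82 to 1.89), H2-Ab1 1.81-fold (1.77 to 1.85) and H2-Eb1 2.16-fold (2.09 to 2.23). In M-BMDM the same genes were 1.32-fold (1.29 to 1.36), 1.33-fold (1.29 to 1.37) and 1.44-fold lower (1.38 to 1.49). Each classical chain thus had a larger drop in the GM-BMDM pair, and the order H2-Eb1 over H2-Aa and H2-Ab1 held in each kind.

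H2-DMa, the DM alpha chain, read 187 CPM in untreated and 143 CPM in treated GM-BMDM, and 36.3 CPM in untreated and 19.4 CPM in treated M-BMDM. H2-DMb1, its main beta chain partner here, read 103, 92.0, 42.7 and 31.4 CPM in that order of libraries. These genes kept most of their level in treated GM-BMDM, where H2-DMa was 1.31-fold lower (1.26 to 1.35) and H2-DMb1 1.12-fold lower (1.07 to 1.17). In M-BMDM H2-DMa was 1.87-fold lower (1.71 to 2.04) and H2-DMb1 1.36-fold lower (1.26 to 1.46). H2-DMa and H2-DMb1 were the members with a larger drop in M-BMDM than in GM-BMDM. Between kinds H2-DMa was 5.15-fold higher in GM-BMDM without drug (4.86 to 5.46) and 7.36-fold higher with it (6.84 to 7.92).

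H2-DMb2, the second DM beta gene, read 24.5 CPM in untreated and 10.2 CPM in treated GM-BMDM, and 1.31 CPM in untreated and 0.924 CPM in treated M-BMDM. It was 18.6-fold higher in GM-BMDM without drug (14.0 to 25.3), the largest ratio among the 10 genes, and 2.40-fold lower with drug in GM-BMDM (2.14 to 2.69). Of all reads on the H2-DMb pair, H2-DMb2 held 19.2% in untreated GM-BMDM (18.1 to 20.3%), 9.99% with tunicamycin (9.11 to 10.9%), 2.99% in untreated M-BMDM (2.22 to 3.93%) and 2.86% with tunicamycin (2.04 to 3.89%). The share was highest in untreated GM-BMDM and its intervals overlapped between the M-BMDM libraries. The transcripts of the pair have 369 words of 50 bases in common, 22.7% of those of H2-DMb1 and 21.2% of those of H2-DMb2, so how reads were split between them is uncertain.

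H2-Oa, the alpha chain of the DM antagonist, read 7.77 CPM in untreated and 2.97 CPM in treated GM-BMDM, and 0.805 CPM in untreated and 0.829 CPM in treated M-BMDM. H2-Ob, its beta chain, read 4.12, 2.12, 0.349 and 0.332 CPM in the same order. Both were low genes, at 13 to 35 counts in the M-BMDM libraries, whose levels overlapped within counting error. Without drug H2-Oa was 9.66-fold (6.63 to 14.6) and H2-Ob 11.8-fold (6.72 to 22.7) higher in GM-BMDM. With tunicamycin in GM-BMDM H2-Oa was 2.62-fold lower (2.12 to 3.25) and H2-Ob 1.94-fold lower (1.50 to 2.54).

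**Figure D2:**
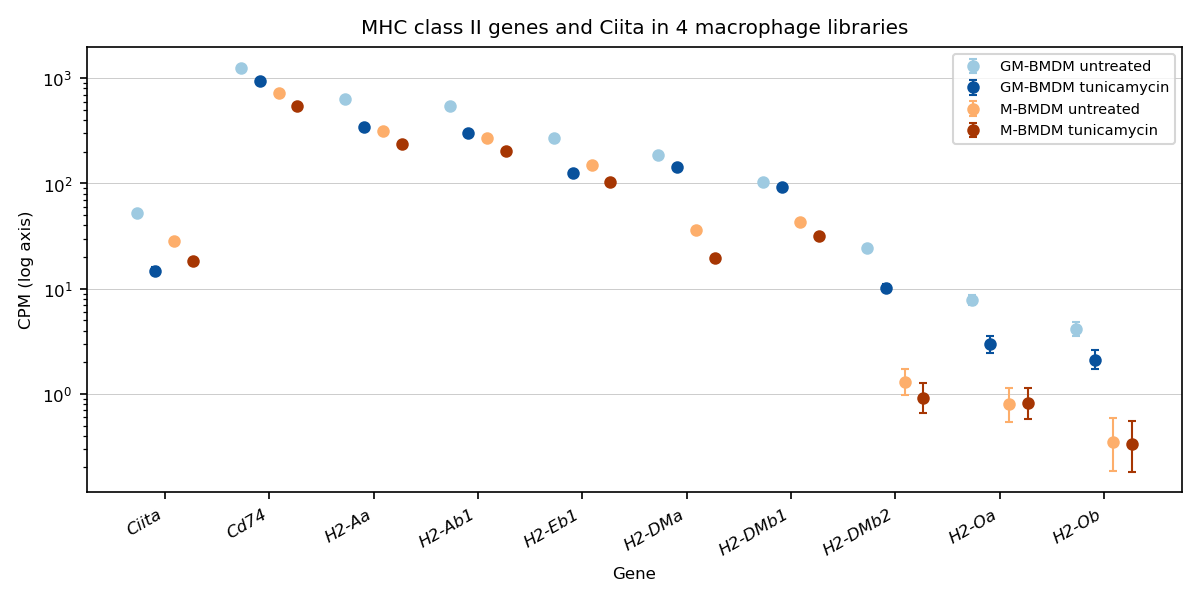
Level of each gene (horizontal axis) in CPM (vertical log axis) in the 4 macrophage libraries, with 95% Poisson counting intervals that are often smaller than the point. Untreated GM-BMDM (light blue) hold the highest point for each gene, and Ciita in treated GM-BMDM (dark blue) lies below both M-BMDM libraries.

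On log2(CPM + 1), 7 of the 10 genes were past 2-fold in favour of untreated GM-BMDM over untreated M-BMDM, where 12.4% of all 11049 genes were. The median difference of the 10 was 1.15, against −0.03 for all genes, with a range of 0.79 to 3.46. All 10 were above 0, as were 47.5% of all genes. H2-Oa and H2-Ob, which averaged 1 CPM only through GM-BMDM, were among the 7. With tunicamycin in both kinds 5 of the 10 were past 2-fold in favour of GM-BMDM, where 12.6% of all genes were, with a median of 0.96, and Ciita at −0.28 was the exception to 9 genes above 0.

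The additive fit over kind and tunicamycin used edgeR's quasi-likelihood test with 1 residual degree of freedom, moderated over genes. That degree of freedom is the difference between the tunicamycin responses of the kinds. The p-values thus hold no spread between replicate cultures, and a gene whose responses differ has that difference counted as error. It called 9 of the 10 genes higher in GM-BMDM, where it called 25.4% of all genes higher and 25.0% lower, with a median of 1.11 for the 10 and −0.04 for all genes. H2-DMb2 had the largest coefficient, a log2 fold change of 3.87 ± 0.23 (SE; edgeR adjusted p = 2.0e-05). H2-Ob followed at 3.13 ± 0.38 (edgeR adjusted p = 5.5e-04), H2-DMa at 2.62 ± 0.16 (edgeR adjusted p = 2.1e-05) and H2-Oa at 2.57 ± 0.38 (edgeR adjusted p = 0.0014). H2-DMb1 stood at 1.41 ± 0.13 (edgeR adjusted p = 1.3e-04). Below it came H2-Ab1 at 0.81, Cd74 at 0.80, H2-Aa at 0.78 and H2-Eb1 at 0.56 ± 0.16, the last with an edgeR adjusted p of 0.024. Ciita was at 0.32 ± 0.27 and was not called (edgeR adjusted p = 0.35), with its own difference of responses (−1.16 on log2(CPM + 1)) counted as error. H2-Oa and H2-Ob averaged 1 CPM only through GM-BMDM, so their direction was largely fixed by the choice of genes compared. The accessory DM genes differed more between kinds than the classical chains, and the classical chains were close to Cd74.

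Markers of other cell types moved with kind in the edgeR fit, which called 25.4% of all genes higher in GM-BMDM and 25.0% lower. All 7 dendritic cell markers compared, of 9 in the list, rose in GM-BMDM, and their summed level was 1165 and 1111 CPM in the GM-BMDM libraries against 14.8 and 18.3 CPM in M-BMDM. The integrin Itgax made up most of that sum, at 1100 CPM in untreated GM-BMDM, while Flt3 and Xcr1 were at or under 0.237 CPM in all 4 libraries. Zbtb46, Ccr7, Cd209a, Dpp4 and Clec9a were at 0 to 0.521 CPM in M-BMDM. They averaged 1 CPM only through GM-BMDM, so their direction was largely fixed by the choice of genes compared. All 5 neutrophil markers compared, of 7 listed, rose as well, with sums of 1674 and 1606 CPM against 50.2 and 31.4 CPM. Mmp8 made up most of these sums, at 1459 and 1485 CPM in untreated and treated GM-BMDM. S100a8, S100a9, Ngp and Ltf were 1.67-fold to 2.07-fold lower with tunicamycin in GM-BMDM, and Ly6g was at most 0.571 CPM. Ngp and Ltf averaged 1 CPM only through GM-BMDM. Among 9 macrophage markers 6 fell in GM-BMDM, such as Adgre1, which encodes F4/80, at 470 against 3163 CPM untreated. The 6 B cell markers summed to 0.448 to 1.58 CPM, with Cr2 at 0 counts in all 4 libraries. Of T cell markers Cd4 alone was compared and fell, of epithelial markers Cdh1 alone and it rose, and of 5 pan-leukocyte markers 2 rose and 2 fell. Cd4 averaged 1 CPM only through M-BMDM and Cdh1 only through GM-BMDM. The part of these cell types in the class II levels was not tested, and more cells of a type and more RNA per cell cannot be told apart in bulk RNA.

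With tunicamycin in GM-BMDM 4 of the 10 genes (Ciita, H2-Oa, H2-DMb2 and H2-Eb1) were at least 2-fold lower on log2(CPM + 1), where 0.443% of all genes were. All 10 were below 0, as were 49.7% of all genes, with a median of −0.87 and a range of −1.77 to −0.17. In M-BMDM 0 of the 10 were at least 2-fold lower, where 0.290% of all genes were, and 9 of the 10 were below 0 (49.1% of all genes), with a median of −0.41. H2-Oa at 0.02 was the exception, and scaling to total counts turned H2-Ob too, which left 8 below 0. The counting intervals of H2-DMb2 (1.42-fold lower, 0.915 to 2.23) and H2-Ob (1.05-fold lower, 0.455 to 2.41) included 1 in M-BMDM. Summed over the 10 genes, class II reads made up 0.296% of all counts in untreated GM-BMDM and 0.196% with tunicamycin, against 0.155% and 0.123% in M-BMDM.

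**Figure D3:**
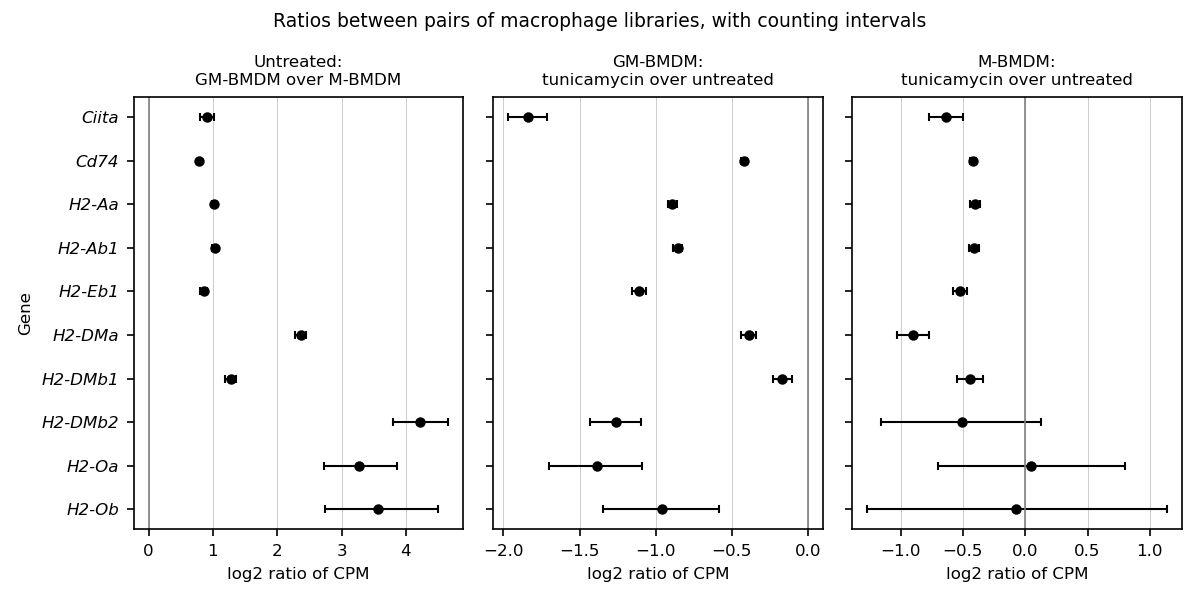
Ratio of CPM between pairs of macrophage libraries (horizontal axes, log2, each panel with its own range) for the 10 genes (vertical axis), with exact 95% counting intervals and a line at no difference. All points of the left panel lie right of 0, and in the middle panel Ciita lies farthest left while H2-DMb1 is nearest to 0.

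Over both kinds the edgeR fit called 0 of the 10 genes, and 0 of all genes (0%), for tunicamycin at an adjusted p under 0.05. At an unadjusted p under 0.05 it held 9 of the 10, and 9.98% of all genes. All 10 coefficients were below 0, from −0.30 for H2-DMb1 to −1.24 ± 0.27 for Ciita (SE; edgeR adjusted p = 0.37), with a median of −0.69. DESeq2's Wald test called 4 of the 10 lower: Ciita (adjusted p = 0.0020), H2-Eb1 (0.0031), H2-Aa (0.030) and H2-Ab1 (0.034). Of all 11049 genes it called 33 lower. Without the level minimum edgeR called 3 lower, namely Ciita, H2-Eb1 and H2-DMb2, and 53 of all 16303 genes then tested. The call thus depends on the tool and the filter, while the sign of the 10 coefficients was the same in all 4 fits.

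The difference of the responses, GM-BMDM minus M-BMDM on log2(CPM + 1), was below 0 for 7 of the 10 genes (50.2% of all genes), with a median of −0.53 against 0.00 for all genes. Ciita and H2-Oa, each at −1.16, were the 2 at −1 or lower, where 1.38% of all genes were. As a ratio without pseudocount the Ciita difference was −1.20 (−1.39 to −1.02 from counting error). That of H2-Oa was −1.43 (−2.20 to −0.67) and that of H2-Ob −0.89 (−2.04 to 0.26). In M-BMDM H2-Oa and H2-Ob were under 1 CPM, at 13 to 35 counts. On log2(CPM + 1) they could not fall there by as much as in GM-BMDM, so their values below 0 were set by that low level. H2-DMa at 0.48 and H2-DMb1 at 0.27 lay on the other side of 0. No replicate spread exists for this difference. Of the 7 dendritic cell markers compared 5 were below 0 and 2 above 0 with tunicamycin in GM-BMDM, with a median of −0.18. Of all genes 49.7% were below 0 there and 0.443% at least 2-fold lower. At least 2-fold lower were Dpp4, with 180 counts against 646 untreated, and Cd209a, with 39 against 126. Batf3 was 1.38-fold higher (1.14 to 1.68) and Clec9a 1.20-fold higher (1.09 to 1.32), and Itgax read 1100 CPM untreated and 1059 CPM treated. The part of these cells in the class II drop was not tested.

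Per length, on the deposited FPKM values (reads scaled by gene length and library size), Cd74 led in all 4 macrophage libraries and H2-Ob was last. H2-Aa and H2-Ab1 were nearly equal on the gene lengths of the macrophage table. Their FPKM ratio was 1.01 (0.995 to 1.03) in untreated and 0.989 (0.966 to 1.01) in treated GM-BMDM, and 1.02 (0.994 to 1.05) in untreated and 1.02 (0.995 to 1.05) in treated M-BMDM. On these gene lengths the alpha and beta chains of I-A thus did not differ beyond counting error in any library. H2-Aa itself ranged from 237 to 635 CPM and H2-Ab1 from 202 to 547 CPM between libraries. The lengths are 1874 bases for H2-Aa and 1637 for H2-Ab1, against 3798 and 2568 in the LLC table. Whether the chains are equal thus depends on the gene model, while the steadiness of their ratio between libraries does not. Cd74 stood at 2.68 times H2-Ab1 in untreated and 3.62 times in treated GM-BMDM, and 3.15 times in untreated and 3.13 times in treated M-BMDM. The invariant chain was thus highest relative to I-A in treated GM-BMDM.

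The DM genes and Ciita were set against I-A in the same way. Ciita FPKM was 1.66% of that of H2-Ab1 in untreated and 0.838% in treated GM-BMDM, and 1.81% in untreated and 1.55% in treated M-BMDM. H2-DMa FPKM was 34.0% of that of H2-Ab1 in untreated and 47.1% in treated GM-BMDM, and 13.5% in untreated and 9.59% in treated M-BMDM. The drug went with a higher H2-DMa ratio in GM-BMDM and a lower one in M-BMDM, with separate intervals each time. H2-DMa was at 1.36 and 1.28 times the summed H2-DMb1 and H2-DMb2 FPKM in GM-BMDM, without and with drug. In M-BMDM it was at 0.749 and 0.545 times that sum. These ratios rest on a length of 1641 bases for H2-DMa, against 3448 in the LLC table. On which side of 1 they lie is therefore uncertain, while their order between libraries does not depend on the length. H2-Oa FPKM was 5.20% of H2-DMa in untreated and 2.60% in treated GM-BMDM, 2.77% in untreated M-BMDM and 5.34% in treated M-BMDM. The M-BMDM values rest on 30 and 35 H2-Oa counts, and their counting intervals overlapped. In order of FPKM H2-Oa, Ciita, H2-DMb2 and H2-Ob filled the last places of each library. H2-DMa and H2-DMb1 changed places between the kinds, an order that also rests on the gene lengths.

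**Figure D4:**
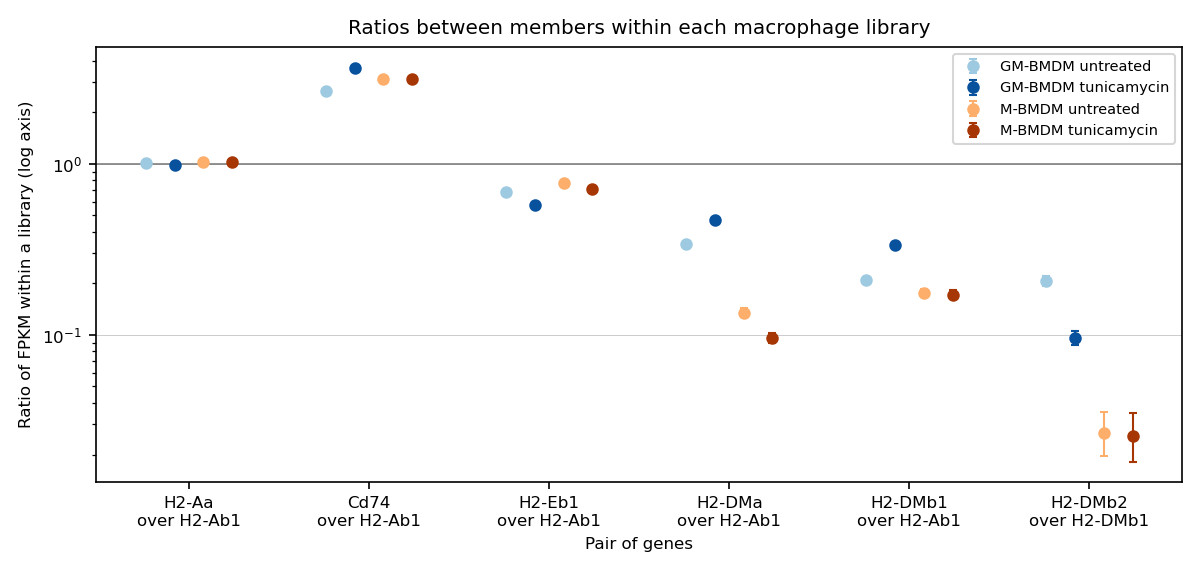
FPKM of the first gene divided by that of the second (horizontal axis, pairs of genes) within each macrophage library (vertical log axis), with 95% counting intervals. H2-Aa over H2-Ab1 sits on the line at 1 in all 4 libraries, while H2-DMa over H2-Ab1 spans 0.0959 to 0.471.

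Across the 4 macrophage libraries H2-Eb1 was the nearest of 11048 genes to Ciita, by the root mean square difference of log2(CPM + 1) centred on each gene's mean (0.27). Eif4ebp2 (0.31), Pabpc1 (0.33), Rnase6 (0.34), Polr2a (0.34) and Ftl1-ps1 (0.36) came next, genes of translation, transcription, host defence and, for the last, a ferritin pseudogene. H2-Aa ranked 10, H2-Ab1 12 and Cd74 153, whereas H2-DMa ranked 10323. H2-Aa and H2-Ab1 were each other's nearest gene of all (0.02), and H2-Aa was also nearest to H2-Eb1 (0.14). The DM genes had no class II gene among their nearest: H2-DMa lay nearest to Gng11 (0.08) and H2-DMb1 to Lpcat3 (0.04). These distances over 4 libraries share 2 differences of condition and describe likeness alone.

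The genes of the complex that holds Ciita at class II promoters were described from a list of 7. In the edgeR fit 0 of them rose and 1 fell in GM-BMDM, where 25.4% of all genes rose and 25.0% fell. Their median log2 fold change was −0.25 (all genes, −0.04). Rfx5, of the X box factor, was lowest in untreated GM-BMDM at 14.9 CPM and highest in treated M-BMDM at 21.5 CPM. Rfxap read 9.16, 10.6, 12.6 and 11.5 CPM, and Rfxank 24.0, 22.6, 16.3 and 19.7 CPM, in untreated and treated GM-BMDM and then untreated and treated M-BMDM. The spread between the libraries was thus under 2-fold for each of the 3 X box genes. Creb1, which binds the cyclic AMP element, was the gene that fell (log2 fold change −0.63 ± 0.11, edgeR adjusted p = 0.0037).

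Of 17 regulators upstream of Ciita 3 rose and 9 fell in GM-BMDM, with a median of −0.54, where 25.4% of all genes rose and 25.0% fell. Irf4, a factor of dendritic and alternatively activated cells, rose by 4.00 ± 0.16 (edgeR adjusted p = 4.3e-06), and the kinase gene Jak2 and the cytokine signalling inhibitor Socs1 rose too. On the interferon gamma route Ifngr2 and Jak1 were not called. Ifngr1, the binding chain of the receptor, read 139 against 273 CPM untreated, and Irf1, a factor that acts on the Ciita promoter, 51.0 against 125 CPM. Both genes fell in the fit, as did Irf8, a lineage factor, at 150 against 274 CPM. Spi1, which encodes the myeloid factor PU.1, read 233 against 245 CPM and was not called (edgeR adjusted p = 0.33). Il10, a cytokine that lowers class II display, was at 3 counts in untreated GM-BMDM and 0 with tunicamycin, against 364 and 71 counts in M-BMDM. In M-BMDM Irf1 went from 125 to 229 CPM with tunicamycin while Ciita was lower there. The tunicamycin fit called 0 of these 17 genes.

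Among genes that prepare peptides for class II 4 of 6 rose and 1 fell in GM-BMDM, with a median of 0.90. Of all genes 25.4% rose and 25.0% fell. The invariant chain protease Ctss read 7293 and 7080 CPM in GM-BMDM and 4265 and 3523 CPM in M-BMDM, without and with drug. Ctsl, Ctsd and Ctsh were the others that rose, Ctsl by the most, with 1965 against 735 CPM untreated, and Lgmn, which encodes an endopeptidase of the endosome, fell (−0.78). The thiol reductase Ifi30 was not analysed here. Of 4 genes of class II turnover 1 rose and 1 fell, close to those shares of all genes. Marchf1, the ubiquitin ligase that sends class II to degradation, rose (0.77 ± 0.14, edgeR adjusted p = 0.0037). Cd83, which opposes that ligase, fell (−3.13 ± 0.34, edgeR adjusted p = 3.2e-04), and read 62.1 CPM in untreated and 174 CPM in treated M-BMDM against 12.0 CPM in each GM-BMDM library.

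Genes of other function in or beside the class II region were listed as well. Of 8 compared 0 rose and 5 fell in GM-BMDM, with a median of −0.63, where 25.4% of all genes rose and 25.0% fell. Those that fell were Psmb9, Tap1, Brd2, Ring1 and Rxrb. Brd2, which encodes a chromatin reader, overlaps H2-DMa on the opposite strand, and it read 203, 215, 244 and 381 CPM in untreated and treated GM-BMDM and untreated and treated M-BMDM. That order is opposite to that of H2-DMa. Antisense genes also overlap H2-Eb1 and H2-Oa, and Dexi overlaps Ciita. The sources used here do not give the strand setting of the counting, so reads of such pairs cannot be told apart. H2-Eb2, a further I-E beta gene, was at 4, 9, 0 and 1 counts, and the I-E alpha gene was not analysed here.

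In LLC cells the classical class II chains were at or near 0, and Cd74 was higher with each stressed medium than in the other 3 libraries. Its counts were 11 in untreated cells, 24 and 6 with the unstressed media of GM-BMDM and M-BMDM, and 166 and 109 with their stressed media. In CPM these were 0.725, 1.56, 0.387, 10.5 and 6.45, so each stressed-medium library lay above all 3 others with separate counting intervals. Cd74 was 6.70-fold higher with stressed than with unstressed GM medium (4.35 to 10.8), where 0.393% of all genes were at least 2-fold higher. For M medium the ratio was 16.7-fold (7.41 to 46.4), where 0.411% of all genes were. Against untreated cells, which these comparisons share, Cd74 was 14.4-fold higher with stressed GM medium (7.86 to 29.5; 1.48% of all genes) and 8.90-fold higher with stressed M medium (4.78 to 18.3; 1.22% of all genes). Stressed GM medium gave 1.62 times the level of stressed M medium (1.27 to 2.08), under the 2-fold mark. Between the unstressed media Cd74 was 4.03-fold higher with GM medium (1.60 to 12.1) on 24 and 6 counts, or 0.88 on log2(CPM + 1), so 0 of the 3 genes compared were past 2-fold there, where 0.125% of all genes were. Cd74 passed the level minimum only through the stressed-medium libraries.

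H2-Aa had 1 count in untreated LLC cells and 0 in the other 4 libraries, H2-Eb1 had 3 counts with stressed M medium and 0 elsewhere, H2-DMb2 had 1 count in all, and H2-Ob had 0. With 3 counts taken as the limit that a count of 0 allows, the limit was 0.177 to 0.198 CPM at these depths. H2-Ab1 had 12, 2, 8, 6 and 4 counts in untreated cells and those given unstressed GM, unstressed M, stressed GM and stressed M medium, and so was highest in untreated cells. Ciita had 12, 14, 18, 10 and 2 counts in that order. Its level with stressed M medium rests on those 2 counts and was 9.82-fold lower than with unstressed M medium (2.35 to 87.2). In neither stressed-medium library was Ciita, H2-Aa or H2-Ab1 above all 3 of the other libraries, as Cd74 was. H2-Eb1 was above them with stressed M medium alone, on its 3 counts. At such counts these orders are uncertain.

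H2-DMa read 7.44 CPM in untreated LLC cells, 4.09 and 6.19 CPM with the unstressed media of GM-BMDM and M-BMDM, and 2.90 and 2.66 CPM with their stressed media. It was at least 2-fold lower with stressed GM medium (2.57-fold, 1.81 to 3.70) and stressed M medium (2.80-fold, 1.96 to 4.04) than in untreated cells, where 2.40% and 2.14% of all genes were. Between stressed and unstressed M medium it was 2.33-fold lower in CPM (1.62 to 3.39) but −0.97 on log2(CPM + 1), so 0 of the 3 genes compared were 2-fold lower there, where 0.143% of all genes were. H2-DMb1 was the member with the most reads in LLC cells, at 41.0, 32.4, 31.9, 28.0 and 23.8 CPM in the same order of libraries. Its highest level was in untreated cells, and it was 1.73-fold lower with stressed M medium (1.52 to 1.96). With unstressed M medium as the comparison H2-DMb1 was 1.34-fold lower in stressed M medium (1.18 to 1.54). Both DM genes were lower in each stressed-medium library than in the other 3, although for H2-DMa between the GM media the interval included 1 (1.41-fold, 0.951 to 2.11). H2-DMa has a longer gene model in the LLC table, 3448 against 1641 bases, and the overlapping Brd2 read 364 to 436 CPM, so its few reads are uncertain.

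**Figure D5:**
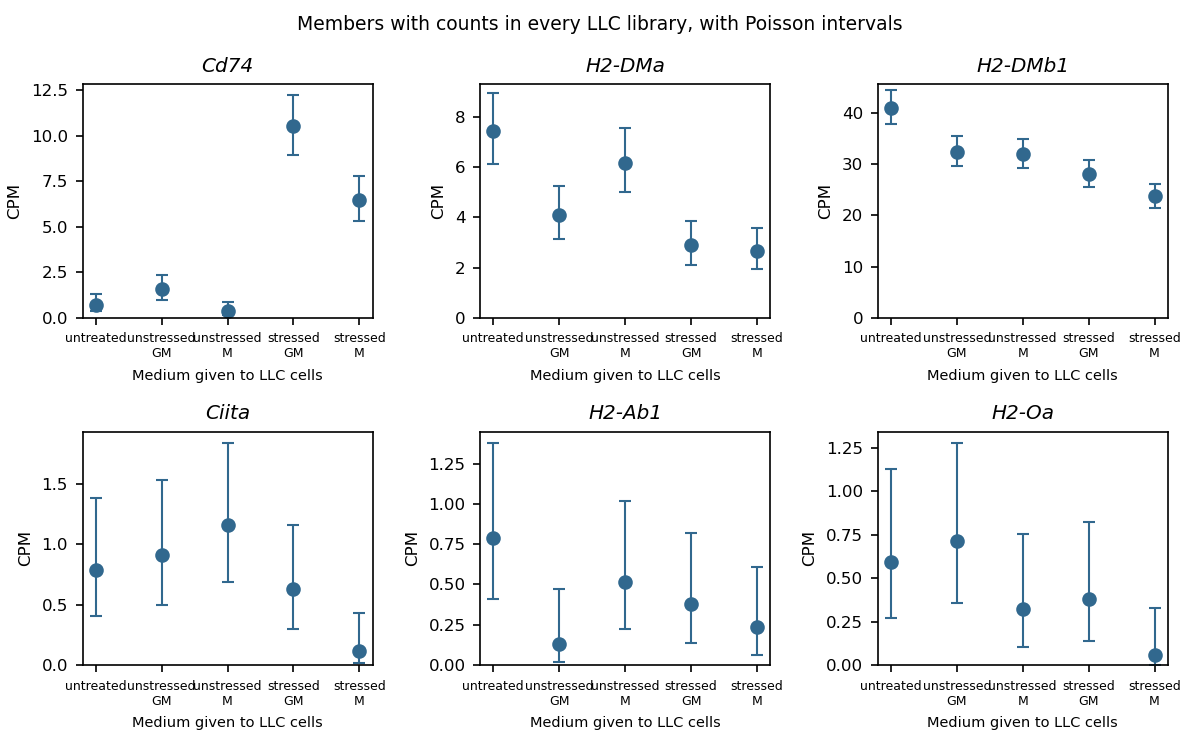
CPM (vertical axes from 0, each panel with its own range) of the 6 genes with counts in every LLC library, by the medium given (horizontal axes), with 95% Poisson intervals. Cd74 is high in the stressed-medium libraries alone, while H2-DMb1 and H2-DMa are highest in untreated cells.

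Marker lists of leukocytes were summed in LLC cells as well. The 5 pan-leukocyte markers summed to 1.39 and 1.24 CPM with stressed GM and M medium and to 1.43 to 2.83 CPM in the other 3 libraries. Ptprc and Tyrobp were at 0 counts in all 5, as were the macrophage genes Adgre1 and C1qa and the protease Ctss. The 9 macrophage markers summed to 28.6 and 29.9 CPM with stressed medium and 26.6 to 40.7 CPM otherwise, led by Cd14 and Mertk. The dendritic cell markers summed to 24.6 and 22.8 CPM with stressed GM and M medium and to 22.6 to 38.0 CPM in the other 3 libraries. The B cell markers summed to 23.6 and 28.0 CPM with stressed medium, above the 18.3 to 22.7 CPM of the others, with 1 of the 6 averaging 1 CPM or more, Ms4a1 at 0 counts in all 5 libraries and Cd79b at 1 count or 0. The neutrophil markers summed to 0.315 and 0.769 CPM with stressed GM and M medium and 0.387 to 0.593 CPM otherwise, and the T cell markers to 0.315 CPM with stressed GM medium, 0.0650 CPM with unstressed GM medium and 0 elsewhere. The part of other cells in the Cd74 counts was not tested. Of the epithelial markers Krt8 read 320 to 494 CPM, while Epcam had at most 3 and Cdh1 at most 2 counts per library.

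The X box factor genes were present in LLC cells, with Rfx5 at 15.6 to 26.4 CPM, and 0 of the 7 genes of that complex were past 2-fold between stressed and unstressed medium of either kind. Ifngr1 read 32.0 to 37.5 CPM over the 5 libraries. Irf1 read 16.4 CPM in untreated cells and 21.9 to 25.8 CPM with any medium, with 25.8 CPM in stressed and 24.3 CPM in unstressed GM medium. Irf4 and Il10 had 4 counts or fewer, and Cd83 had 0 in each library. Of the 17 regulators 12 were compared, and 0 were past 2-fold between stressed and unstressed medium of either kind. Of all genes 0.393% were at least 2-fold higher with stressed than unstressed GM medium. For M medium 0.411% were at least 2-fold higher and 0.143% lower. A count of 0 in lists of 7 and 12 genes is thus near the share of all genes.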

How the data were processed

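Total RNA was extracted with Trizol from 4 macrophage and 5 LLC cultures, per the labels' protocols. Read counts per gene were deposited by the authors in a table for each cell type, with FPKM values beside them. All counts were whole numbers (0 exceptions), and FPKM recomputed from count, length and total differed by at most 4.9e-06. A line-end character inside the quoted last column of the LLC table was stripped, and that table's columns, raw counts and FPKM too, were recorded under the unit other, since the unit check splits its lines there. Cutadapt 1.15, HISAT2 and TopHat2 2.1.0 are named in the submitters' processing notes. The sources used here give no counter, strand setting or genome build, but 99.0% of LLC gene IDs shared with GENCODE M21 (GRCm38) had equal coordinates. Gene lengths were equal for 20782 of the 21820 IDs in both tables, so FPKM was compared only within the macrophage table.

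From the deposited counts CPM values were computed with TMM sizes (edgeR 4.0.16 in R 4.3.3). Differences are log2(CPM + 1), called from 2-fold, and ratios of CPM carry exact Clopper-Pearson intervals. Differences of responses carry Wald intervals on log2 ratios. The macrophage fit held kind and tunicamycin (edgeR quasi-likelihood, Benjamini-Hochberg at 0.05, coefficient of variation 11.5%, prior degrees of freedom 5.77), and was tested on simulated counts. SE is the absolute log2 fold change over the square root of F. LLC libraries were not fitted. DESeq2 1.42.0, other size factors, a pseudocount of 0.25 CPM and no level minimum were alternatives.

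Named genes were the 10 members, at most 3 per list by largest difference at 5 CPM or more in a comparison of macrophage libraries, 16 genes always named, and the 6 nearest Ciita. Genes named beside these, such as further list members that passed or the nearest genes of the DM genes, were chosen after their values were seen. There were 6 pathway and 7 marker lists. Some genes of these lists are counted in them but not reported here by name. Members and lists were chosen with earlier results of these data known.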

Additional observations from a re-analysis of the deposited data

How the results depend on the processing

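No paired analysis was possible because each group held 1 library and the labels give no shared replicate numbers, and leaving out a library left no residual degree of freedom. The number of class II genes that fell with tunicamycin in macrophages went from 0 to 4 with DESeq2's Wald test and to 3 without a level minimum. Of all genes 33 of 11049 and 53 of 16303 fell in those fits. In LLC cells the number at least 2-fold lower with stressed than unstressed M medium went from 0 to 1 with total counts and to 1 with a pseudocount of 0.25 CPM. The number at least 2-fold higher with GM than M medium, both unstressed, went from 0 to 1 with that pseudocount. The cause was not tested. No value with a call changed sign. The kind effect called 9 genes in all 4 fits. Scaling to total counts moved the median of all genes by −0.10 between treated kinds and 0.10 between the M-BMDM libraries. Depth limits H2-Oa and H2-Ob in M-BMDM and 7 of the 10 genes in LLC cells.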
